A study of Mus musculus with 6 samples.

Results

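The 10 genes Ccnd1, Ccnd2, Ccnd3, Ccne1, Ccne2, Cdkn1b, Cdkn1c, Cdkn2a, Cdkn2b and Cdkn2c encode the D-type and E-type cyclins of the G1 phase and inhibitors of the kinases that these cyclins activate. They were chosen by symbol: all probe sets whose array annotation gave exactly 1 of these names were taken, which yielded 22 of 34945 named probe sets, and the probe set with the highest mean over the arrays stood for its gene, giving 10 of 18193 genes. Expression arrays had been hybridised with RNA from bladder urothelium of FVB/N mice aged 8 months, cut out of stained frozen sections by laser capture. The 6 arrays formed 3 groups of 2, namely wild-type urothelium (called normal here), carcinoma in situ, a flat high-grade lesion that stays within the epithelium, and invasive carcinoma. Mice of both lesion groups had the genotype H-ras+/-, p53-/-, that is an H-ras transgene in the absence of p53, and no group with either alteration alone was analysed here. Genotype and lesion cannot be told apart in a comparison with normal urothelium, while the lesions shared a genotype. The labels name neither the promoter of the transgene nor the animal behind an array, so p-values measure the spread between arrays, which may be technical.

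D-type cyclins (cyclin D1, D2 and D3) are induced by growth factors and Ras signalling, bind Cdk4 and Cdk6, and start the phosphorylation of the retinoblastoma protein. E-type cyclins act with Cdk2 and carry the cell from G1 into DNA synthesis, and their genes are transcribed by the E2F factors that the retinoblastoma protein otherwise holds back. The Ink4 inhibitors, encoded by Cdkn2a (p16Ink4a), Cdkn2b (p15Ink4b) and Cdkn2c (p18Ink4c), block Cdk4 and Cdk6, whereas the Cip/Kip inhibitors, among them p27Kip1 (Cdkn1b) and p57Kip2 (Cdkn1c), bind cyclin E and Cdk2 complexes. Cdkn2a also encodes, from another start site and another reading frame, p19Arf, which stabilises p53 by binding Mdm2. Oncogenic Ras is known to induce products of Cdkn2a in cultured mouse cells.

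Cdkn2a and Cdkn2b lie next to each other and both rose in the lesions, as described further on, and their start regions are shown here, 5′ to 3′, from 250 bases before to 50 bases after each annotated start (RefSeq, GRCm38.p6, minus strand of chromosome 4). The Cdkn2b start lies 16.4 kb before the upstream start of Cdkn2a, which is that of p19Arf, and the downstream start, that of p16Ink4a, lies 12.4 kb further on. Capitals mark matches on either strand to an E2F word (TTTGGCGC, TTTCGCGC, TTTGCCGC or TTTCCCGC), to the cyclic AMP response element TGACGTCA, or to the GC box GGGCGG.
Cdkn2b, chr4:89310983-89311282: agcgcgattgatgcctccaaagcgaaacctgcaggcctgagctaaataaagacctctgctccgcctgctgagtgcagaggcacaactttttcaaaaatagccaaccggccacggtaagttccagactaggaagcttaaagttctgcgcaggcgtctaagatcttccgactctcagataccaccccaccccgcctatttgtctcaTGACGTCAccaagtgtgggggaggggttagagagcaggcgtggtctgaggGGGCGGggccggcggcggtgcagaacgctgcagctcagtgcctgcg
Cdkn2a upstream start, chr4:89294570-89294869: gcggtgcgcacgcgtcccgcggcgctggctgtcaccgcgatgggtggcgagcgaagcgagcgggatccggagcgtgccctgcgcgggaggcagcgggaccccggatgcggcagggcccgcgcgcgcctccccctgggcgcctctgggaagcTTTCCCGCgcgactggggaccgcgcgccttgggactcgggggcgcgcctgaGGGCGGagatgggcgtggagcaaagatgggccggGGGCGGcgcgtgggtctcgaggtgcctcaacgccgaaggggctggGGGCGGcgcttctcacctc
Cdkn2a downstream start, chr4:89282143-89282442: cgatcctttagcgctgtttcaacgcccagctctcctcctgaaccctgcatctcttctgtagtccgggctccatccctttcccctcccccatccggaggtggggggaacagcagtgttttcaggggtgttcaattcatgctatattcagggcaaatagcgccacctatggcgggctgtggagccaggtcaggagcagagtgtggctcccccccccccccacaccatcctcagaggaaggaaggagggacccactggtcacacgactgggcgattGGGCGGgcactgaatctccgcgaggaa
The upstream Cdkn2a window held 1 E2F word, TTTCCCGC, 99 bases before the start, and 3 GC boxes, with no overlap between them. The Cdkn2b window held 1 cyclic AMP response element 46 bases before the start and 1 GC box, and the downstream Cdkn2a window held 1 GC box only. Among 32851 windows of the same length in the RefSeq table, 2.26% held an E2F word, 1.79% the cyclic AMP response element and 35.7% a GC box. The AP-1 word TGANTCA, found in 7.81% of windows, was in none of the 9 windows available for 6 of the 10 genes. The 1 Cdkn2a probe set on the array carries the suffix of sets that read several transcripts of a gene, so its signal does not separate p19Arf from p16Ink4a messages.

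Signal is given as log2 values after RMA normalisation (see the processing section), and array medians lay between 6.07 and 6.14. The in situ arrays were the closest pair, with a standard deviation of 0.22 for their log2 difference over genes, against 0.42 for the invasive and 0.69 for the normal pair. Signal of sex-linked genes differed with the groups. Kdm5d, a Y-linked gene, read 8.28 and 7.62 in normal urothelium, 2.90 and 2.84 in situ and 6.58 and 5.96 in invasive carcinoma. Xist, which is expressed from the inactive X chromosome of females, read 6.85 and 13.37 in normal urothelium, 13.17 and 13.33 in situ and 10.28 and 6.43 in invasive carcinoma. Both in situ arrays thus had the Xist signal with little Y-linked signal, every other array had Y-linked signal, and normal array 2 and invasive array 1 had both. In the comparisons that use carcinoma in situ, lesion and sex-linked signal cannot be told apart. Leaving out normal array 2 and invasive array 1 together left a single array in each of those groups. The log2 difference of Ccnd1 against normal urothelium was then 2.75 in situ and 2.67 in invasive carcinoma. That of Ccnd2 was 1.26 and 1.27. Uroplakin genes, which define the urothelium, were present in the normal arrays (Upk3a 14.09 and 13.63), but Dcn, a fibroblast gene, was present in both too. Dcn read 11.79 in normal array 1 and somewhat less in normal array 2, above every other fibroblast marker in each. The other fibroblast markers lay between 4.79 (Pdgfrb) and 10.01 (Col3a1) in the normal arrays. In carcinoma in situ Upk3a read 11.58 and 11.71, and in invasive carcinoma 6.84 and 8.91, and of the 17 urothelial markers it had the largest fall there. Across that list 2 rose and 3 fell in situ and 1 rose and 6 fell in invasive carcinoma. Krt14, a basal keratin gene, rose by 5.28 and 6.07 in the lesions, and Krt8 and Epcam, which are general epithelial genes, were not called (0.00 and 0.18 in invasive carcinoma). In all results that follow, fewer cells of a type and less RNA per cell cannot be told apart.

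Carcinoma in situ was compared with normal urothelium to see which of these genes differed where the tumours arise. All 3 D-type cyclin genes, Ccne2 and the 3 Ink4 genes were higher in carcinoma in situ, while the Cip/Kip genes Cdkn1b and Cdkn1c did not differ measurably. By limma with Benjamini-Hochberg adjustment over all genes (adjusted p under 0.05, here called a rise or a fall), 7 of 10 genes rose and 0 fell, where 5.74% of all genes rose, 3.04% fell and 8.78% changed either way. The median log2 difference was 1.22 over the 10 genes and 0.007 over all genes. The arrays of the groups did not overlap for 8 of 10 genes, all higher in the lesion, where 29.3% of all genes were separate and higher and 25.1% separate and lower. These calls rest on both in situ arrays: without either of them limma called 0 of all 18193 genes, the 10 included. At an unadjusted p under 0.05 there were 7 of the 10 genes each time, and 2347 and 2443 of all genes.

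**Figure D1:**
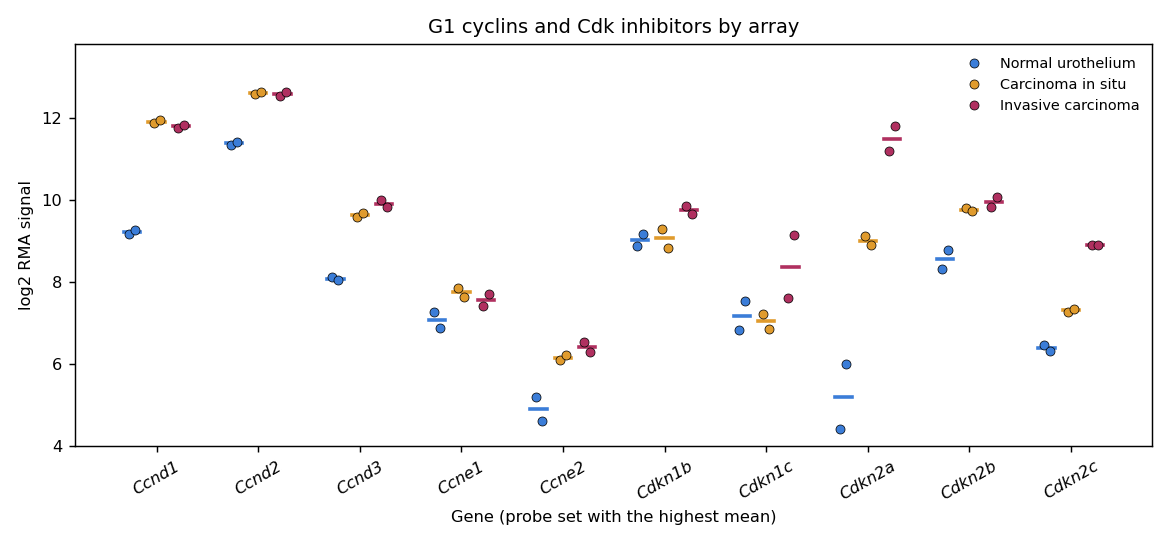
Log2 RMA signal (vertical axis) of the 10 genes (horizontal axis) on each array, 2 points per group with a bar at their mean. The lesion points of Ccnd1, Ccnd2 and Ccnd3 lie together and above both normal points, whereas Cdkn2a and Cdkn2c climb from normal urothelium through carcinoma in situ to invasive carcinoma.

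Ccnd1, the gene of cyclin D1, read 9.16 and 9.26 in the normal arrays and 11.87 and 11.95 in carcinoma in situ. Both lesion arrays thus lay far above both normal arrays, with a log2 difference of 2.70 ± 0.15 (SE, n = 2 arrays per group), or 6.49-fold, at an adjusted p of 0.00330 in limma. That placed Ccnd1 at rank 126 of 18193 genes ordered by their rise. Ccnd2, the gene of cyclin D2, read 11.35 and 11.40 in normal urothelium and 12.59 and 12.62 in situ, a rise by 1.23 ± 0.15 (2.35-fold, limma adjusted p = 0.0119). Ccnd3, the gene of cyclin D3, went from 8.11 and 8.05 to 9.58 and 9.69, a rise by 1.55 ± 0.16 (2.94-fold, limma adjusted p = 0.00788). For neither gene did the groups overlap.

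Other probe sets bear on the D-type cyclins unevenly. All 3 Ccnd1 probe sets rose, by 2.53 to 2.71 on the log2 scale, as did 6 of 7 Ccnd2 probe sets, by 1.23 to 2.11 over all 7. The rise of Ccnd3 was carried by 1 of 3 probe sets, and the others read -0.33 and -0.39 with no call. With the mean of its probe sets Ccnd3 was not called against normal urothelium in carcinoma in situ (0.28, limma adjusted p = 0.348) or in invasive carcinoma (0.55, limma adjusted p = 0.0596).

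Among the E-type cyclins, Ccne2 read 5.19 and 4.61 in normal urothelium and 6.09 and 6.22 in carcinoma in situ. It rose by 1.26 ± 0.24 (2.39-fold, limma adjusted p = 0.0353), with no overlap between the groups. Ccne1 read 7.27 and 6.89 against 7.86 and 7.63, which did not pass (difference 0.66 ± 0.22, limma adjusted p = 0.132). It passed without normal array 1 (0.86, limma adjusted p = 0.0403) and with the mean of its probe sets (1.01, limma adjusted p = 0.0196). Its second probe set did pass, from 5.83 and 5.77 to 7.29 and 7.02 (1.35 ± 0.18, limma adjusted p = 0.0163 over all probe sets). The probe set that stands for Ccne1 has the suffix of sets prone to bind other transcripts.

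Cdkn2a showed the largest difference of the inhibitors. It read 4.41 and 5.99 in the normal arrays, which were themselves well apart, and 9.12 and 8.89 in carcinoma in situ. Both normal values lay below the medians of their arrays (6.08 and 6.14), so its folds against normal urothelium start from a dim signal. The rise was 3.81 ± 0.53 on the log2 scale, or 14.0-fold (95% interval 2.50 to 5.11 on the log2 scale, limma adjusted p = 0.0155), rank 37 of 18193. It was 3.02 without normal array 1 and 4.60 without normal array 2. Its neighbour Cdkn2b read 8.32 and 8.78 against 9.80 and 9.72, a rise by 1.21 ± 0.21 (2.31-fold, limma adjusted p = 0.0287). Cdkn2c went from 6.47 and 6.31 to 7.26 and 7.35, a rise by 0.92 ± 0.16 (1.89-fold, limma adjusted p = 0.0267). For each of these 3 Ink4 genes both in situ arrays were above both normal arrays. The call of Cdkn2c was also lost with a replicate block, and that of Cdkn2b after a further quantile normalisation. The calls of Ccne2, Cdkn2b and Cdkn2c, but not those of the D-type cyclin genes and Cdkn2a, were lost when either invasive array was left out of the common estimate of the spread.

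The Cip/Kip genes gave no such difference. Cdkn1b, the gene of p27Kip1, read 8.87 and 9.17 in normal urothelium and 9.30 and 8.84 in carcinoma in situ, with a difference of 0.05 (95% interval -0.52 to 0.61). Cdkn1c, the gene of p57Kip2 and an imprinted gene, read 6.82 and 7.54 against 7.23 and 6.86, with a difference of -0.14 and a wide interval from -1.47 to 1.19. The groups overlapped for both genes.

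**Figure D2:**
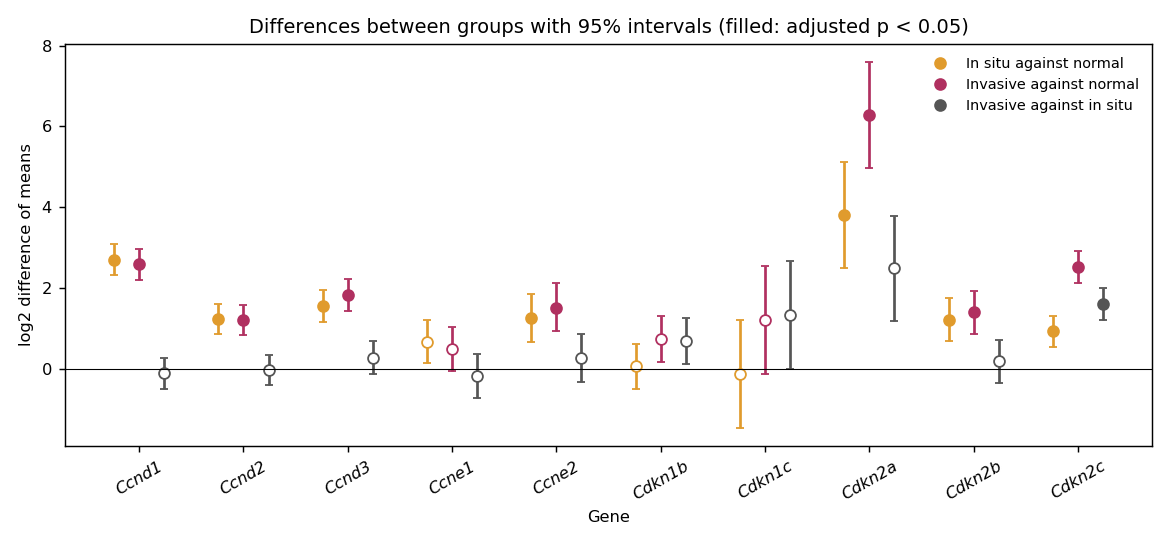
Log2 difference of group means (vertical axis) with 95% intervals for the 10 genes in the 3 comparisons, filled where the adjusted p was under 0.05. The D-type cyclin genes stand well above 0 against normal urothelium and near 0 between the lesions, and Cdkn2c is the only filled point between the lesions.

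Invasive carcinoma was set against normal urothelium to describe the lesion of progression. The same 7 genes rose as in carcinoma in situ, Ccnd1, Ccnd2, Ccnd3, Ccne2, Cdkn2a, Cdkn2b and Cdkn2c, and 0 fell, where 12.6% of all genes rose, 7.46% fell and 20.1% changed either way. A rise in both lesions was called for 4.63% of all genes. The comparisons share the normal arrays, so their values are given side by side and not as independent evidence. All 10 genes were higher in both invasive arrays than in both normal arrays, as were 29.7% of all genes, while 27.1% were separate and lower. The median log2 difference was 1.45 over the 10 genes and 0.000 over all genes.

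Cdkn2a reached 11.19 and 11.79 in invasive carcinoma, above every array of the other groups. Its rise over normal urothelium was 6.29 ± 0.53 on the log2 scale, or 78.2-fold (95% interval 4.98 to 7.59, limma adjusted p = 0.00157), rank 11 of 18193 genes. As the normal arrays differed, the rise was 5.50 without normal array 1 and 7.08 without normal array 2. Cdkn2c read 8.89 and 8.91, a rise by 2.51 ± 0.16 (5.71-fold, limma adjusted p = 0.000744). Cdkn2b read 9.82 and 10.06, a rise by 1.39 ± 0.21 (2.62-fold, limma adjusted p = 0.00944), which had an adjusted p of 0.0643 without invasive array 2.

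The cyclin genes of invasive carcinoma were close to those of carcinoma in situ. Ccnd1 read 11.75 and 11.83, a rise by 2.58 ± 0.15 over normal urothelium (5.97-fold, limma adjusted p = 0.000690). Ccnd2 read 12.53 and 12.62 (1.20 ± 0.15, limma adjusted p = 0.00518), and Ccnd3 read 9.91 ± 0.13 (SD, n = 2 arrays, difference 1.82 ± 0.16, limma adjusted p = 0.00180). All 3 thus kept clear of the normal arrays. Ccne2 read 6.53 and 6.29, a rise by 1.51 ± 0.24 (2.86-fold, limma adjusted p = 0.0105) that was not called without either invasive array. Ccne1 read 7.42 and 7.71, which did not pass (0.48 ± 0.22, limma adjusted p = 0.189), and its second probe set rose by 1.12 ± 0.18 (limma adjusted p = 0.0116 over all probe sets). With the mean of its probe sets it passed here too (0.80, limma adjusted p = 0.0195).

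Of the Cip/Kip genes among the 10, Cdkn1b read 9.85 and 9.65 in invasive carcinoma, above all other arrays. Its difference of 0.73 ± 0.23 did not pass (limma adjusted p = 0.0817). It passed without normal array 2 (limma adjusted p = 0.0455, with 0.0231 to 0.351 over all alternatives). The second Cdkn1b probe set read -0.28 in the same comparison, again with no call. Cdkn1c read 7.60 and 9.15, so that its invasive arrays were far apart, and its difference of 1.19 ± 0.54 did not pass (limma adjusted p = 0.192). The value was 0.42 without invasive array 2 and 1.96 without invasive array 1, when it was called (limma adjusted p = 0.0484).

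**Figure D3:**
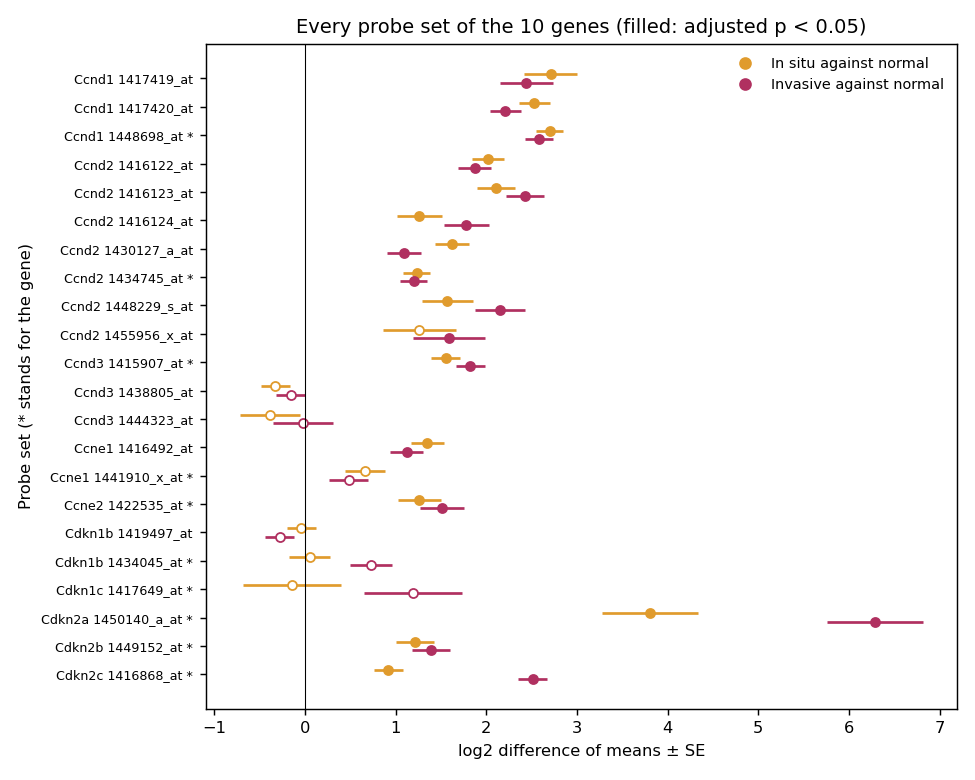
Log2 difference ± SE (horizontal axis) of all 22 probe sets of the 10 genes (vertical axis, an asterisk marking the set that stands for the gene) for each lesion against normal urothelium, filled where the adjusted p over all probe sets was under 0.05. Of the 22 sets 15 are filled for carcinoma in situ and 16 for invasive carcinoma, all to the right of 0, and the remaining Ccnd3 sets lie at or left of 0.

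At the level of probe sets, 15 of 22 rose in carcinoma in situ and 16 of 22 in invasive carcinoma, with 0 falls, where 4.71% and 10.4% of all named probe sets rose. Between the lesions 1 of 22 rose, that of Cdkn2c, against 3.04% of all. Sets of 1 gene read the same transcripts and are not independent.

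The lesions share a genotype, and their comparison asked what differed with invasion, although the sex-linked signal differed between them as well. Cdkn2c was the 1 of 10 genes that rose further, and 0 fell, where 4.18% of all genes rose, 1.31% fell and 5.49% changed either way. The lesion arrays were separate for 7 genes higher in invasive carcinoma and for 1 lower, Ccnd1, where 26.4% and 31.4% of all genes were so. Cdkn2c read 7.26 and 7.35 in situ and 8.89 and 8.91 in invasive carcinoma, a rise by 1.60 ± 0.16 (3.03-fold, limma adjusted p = 0.00599). This call was lost without either in situ array (limma adjusted p = 0.111 and 0.100), with the difference between 1.55 and 1.65 whichever array was left out. Cdkn2a was higher by 2.48 ± 0.53 (5.58-fold, 95% interval 1.18 to 3.79) with no overlap of the arrays, and narrowly missed the threshold (limma adjusted p = 0.0603). It was called with a mean-variance trend and robust moderation, with a replicate block and with only the 4 arrays compared. Leaving out either normal array repeats that last fit. The call was not made after centring the arrays, after a further quantile normalisation or with the dimmer genes dropped. With single arrays left out the difference lay between 2.18 and 2.78.

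For the cyclin genes no difference between the lesions was called. The log2 difference of Ccnd1 was -0.12 (95% interval -0.50 to 0.26), that of Ccnd2 -0.03 (-0.41 to 0.34) and that of Ccnd3 0.27 (-0.13 to 0.67). Over all 7 Ccnd2 probe sets the log2 difference ran from -0.53 to 0.58, with no call. For Ccne1 it was -0.18 (-0.72 to 0.36) and for Ccne2 0.26 (-0.34 to 0.85). These intervals leave room for differences of up to 0.85 on the log2 scale and do not show equal levels. Cdkn2b differed by 0.18 (-0.35 to 0.71), Cdkn1b by 0.68 (0.11 to 1.25, limma adjusted p = 0.189) and Cdkn1c by 1.33 (limma adjusted p = 0.272). The second Cdkn1b probe set read -0.24 between the lesions, with no call. The Cdkn1c difference was 0.56 without invasive array 2 and 2.10 without invasive array 1 (limma adjusted p = 0.777 and 0.0740). It was called without normal array 2 and invasive array 1 together (2.10, limma adjusted p = 2.48e-05, with 5897 of all genes called in that fit).

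Ordered by group, Cdkn2a, Cdkn2b, Cdkn2c, Ccnd3 and Ccne2 stepped up from normal urothelium to carcinoma in situ and again to invasive carcinoma with no overlap between arrays, 5 of 10 genes where 8.59% of all genes did so. Of these second steps only that of Cdkn2c passed the test. For Ccnd1 the invasive arrays lay just below the in situ arrays, and for Ccnd2 and Ccne1 the lesion arrays overlapped.

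Cdkn2a had the largest difference of the 10 genes in each comparison. Over the 6 arrays the genes most like it, among 8165 others with a range of at least 1 log2 unit, were Hmga2-ps1 (Pearson r = 0.9990), Rangap1 (0.9976), which encodes the activator of the Ran GTPase, and Ttc39b (0.9974). Hmga2-ps1 is named as a pseudogene, and its signal may come from Hmga2 transcripts. The 6 arrays are 3 groups of 2, so these values mainly describe a shared order of groups.

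The wider G1 machinery was read from 9 lists with 74 measured genes. In carcinoma in situ 23 rose and 0 fell (median 0.42), and in invasive carcinoma 24 rose and 5 fell (median 0.28), beside the 5.74% and 12.6% of all genes that rose. Between the lesions 2 rose and 1 fell. Of 7 catalytic partners and activators 0 changed in carcinoma in situ. In invasive carcinoma Cdk6, a kinase that D-type cyclins activate, rose by 1.27 ± 0.16 (limma adjusted p = 0.00495) and Ccnh, a subunit of the Cdk-activating kinase, fell by 0.90. Cdk6 read 9.97 and 9.90 in normal urothelium, 10.62 and 10.66 in situ and 11.28 and 11.12 in invasive carcinoma, without overlap between groups. Of the pocket protein genes Rb1, Rbl1 and Rbl2, 0 of 3 changed in any comparison by limma, and differences lay between -0.60 and 0.57.

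E2f7 and E2f8 encode atypical E2F factors that repress transcription and are themselves E2F targets. E2f7 read 4.26 and 4.4 in normal urothelium, 6.21 and 6.62 in situ and 6.95 and 7.26 in invasive carcinoma. It rose by 2.08 ± 0.22 in situ (limma adjusted p = 0.00793) and by 2.78 ± 0.22 in invasive carcinoma (limma adjusted p = 0.00121). E2f8 rose by 2.25 ± 0.30 and 1.92 ± 0.30. Of 10 E2F and DP genes 2 rose in situ and 4 in invasive carcinoma, the others being E2f1 (1.01 ± 0.18) and E2f2 (0.62 ± 0.16), and 0 fell. Among 18 measured E2F target genes of S phase 10 rose and 0 fell in situ, led by Cdk1 (3.27 ± 0.27), Rrm2 (2.92 ± 0.16) and Ccna2 (2.72 ± 0.22), the gene of cyclin A2. In invasive carcinoma 9 of 18 rose, led by Rrm2 (3.82 ± 0.16), Ccna2 (3.50 ± 0.22) and Cdk1 (3.50 ± 0.27). Tyms, the thymidylate synthase gene, fell by 1.14. Rrm2, a subunit of ribonucleotide reductase, was the 1 of these that also rose between the lesions (0.90 ± 0.16, limma adjusted p = 0.0390).

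The remaining Cdk inhibitors rose in both lesions. Cdkn1a, the gene of the Cip/Kip inhibitor p21Cip1, is a p53 target. Its signal was 9.64 and 9.56 in normal urothelium, 11.17 and 11.09 in situ and 10.66 and 10.29 in invasive carcinoma. Cdkn1a rose by 1.53 ± 0.19 and 0.88 ± 0.19, so the Cip/Kip genes as a family did not all stay level. Cdkn2d, the gene of p19Ink4d, rose by 1.03 ± 0.17 and 0.94 ± 0.17, so that all 4 Ink4 genes were called in both lesions. In the turnover list of 9 genes, Cks1b rose by 1.91 ± 0.16 in situ and 2.51 ± 0.16 in invasive carcinoma. Its product helps the ubiquitin ligase subunit Skp2 to recognise p27Kip1. Cks2 rose too (0.88 ± 0.17 and 0.96 ± 0.17), and Skp2 itself did not pass (-0.36 and -0.23). Rnf123, a ligase subunit that acts on p27Kip1, fell by 1.39 in invasive carcinoma.

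**Figure D4:**
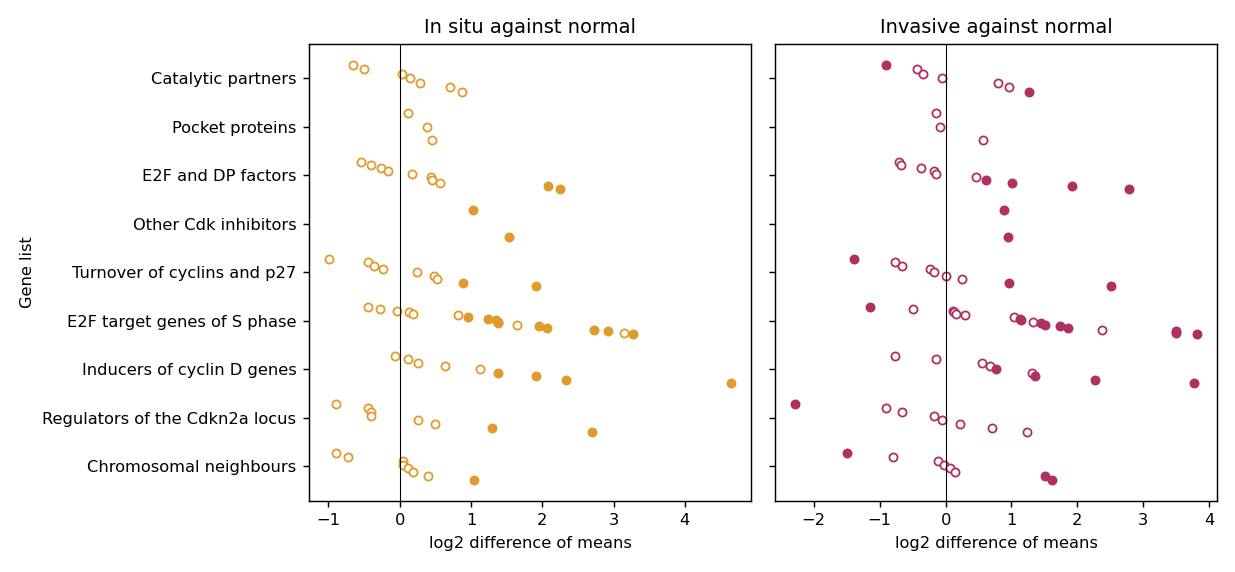
Log2 difference (horizontal axis) of each measured gene in 9 lists of the G1 machinery (vertical axis) for both lesions against normal urothelium, filled where the adjusted p was under 0.05. Pocket protein genes are all unfilled and the other Cdk inhibitors are all filled. The E2F targets of S phase, the longest of the 9 lists with 18 measured genes, hold the most filled points.

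Of 9 inducers of cyclin D genes 4 rose in each lesion and 0 fell. Jun, an AP-1 subunit, rose by 4.65 ± 0.27 in situ and by 3.77 ± 0.27 in invasive carcinoma. The Ets factor genes Etv5 (2.33 ± 0.36) and Etv4 (1.91 ± 0.33) followed in situ, and the AP-1 gene Fosl1 (2.27 ± 0.20) and Etv4 (1.35 ± 0.33) in invasive carcinoma. Among 8 regulators of the Cdkn2a locus, Bmi1, a Polycomb gene, rose by 1.29 ± 0.19 in situ, as did Id1 (2.70 ± 0.48), whose product inhibits helix-loop-helix factors, and 0 fell. Tbx2 read 10.49 and 10.86 in normal urothelium, 10.22 and 10.26 in situ and 8.60 and 8.19 in invasive carcinoma. It fell by 2.28 ± 0.22 against normal urothelium (limma adjusted p = 0.00232) and by 1.84 ± 0.22 against carcinoma in situ (limma adjusted p = 0.0106), the 1 fall of the list. Of 8 measured chromosomal neighbours, Mtap, which lies beside Cdkn2a and encodes a phosphorylase of the methionine salvage pathway, rose by 1.04 ± 0.21 in situ and by 1.51 ± 0.21 in invasive carcinoma. Near Cdkn1c, Kcnq1 rose by 1.62 ± 0.20 and Slc22a18 fell by 1.5 in invasive carcinoma. Fgf3, Fgf4 and Fgf15, which lie near Ccnd1, were not called.

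Markers of other cells moved with these groups. Genes of dividing cells rose as well, 5 of 6 in situ and 6 of 6 in invasive carcinoma, and their summed linear signal was 226 and 307 in the normal arrays, 1684 and 1817 in situ and 2609 and 2305 in invasive carcinoma. Macrophage markers rose for 0 of 8 genes in situ and 7 of 8 in invasive carcinoma, with sums of 2206 to 2859, 5023 to 5290 and 14564 to 23532. Of 8 fibroblast markers 1 rose and 1 fell in situ and 6 rose in invasive carcinoma, and they summed to 3750 to 5850 in normal urothelium, 1420 to 1456 in situ and 28132 to 48554 in invasive carcinoma. In situ, Dcn fell by 4.99 and Pdgfrb, a growth factor receptor gene, rose by 2.08 ± 0.44. Smooth muscle sums had the same order of groups (1727 to 4280, 810 to 938 and 7725 to 14423). Endothelial markers rose for 4 of 8 genes in situ and 8 of 8 in invasive carcinoma (494 to 574, 1489 to 1510 and 1630 to 1847). Urothelial sums, which hide rises and falls of single members, overlapped between normal urothelium and carcinoma in situ (91102 to 140294, 99666 to 106015 and 64171 to 88670 in invasive carcinoma), and both invasive sums were lower. Invasive array 2, the array with the higher Cdkn1c value, also had the higher fibroblast, smooth muscle and macrophage sums. Neutrophil sums reached from 198 to 1157 in normal urothelium, 1286 to 1457 in situ and 3295 to 3683 in invasive carcinoma. Of the neutrophil, lymphoid and nerve lists 0 genes were called in situ by limma and 1 of each rose in invasive carcinoma. Lymphoid sums were 506 to 1443 in normal urothelium, 567 to 573 in situ and 931 to 1236 in invasive carcinoma. Of 2 erythroid markers measured 1 fell in invasive carcinoma. The part of these cells in the values of the 10 genes was not tested.

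**Figure D5:**
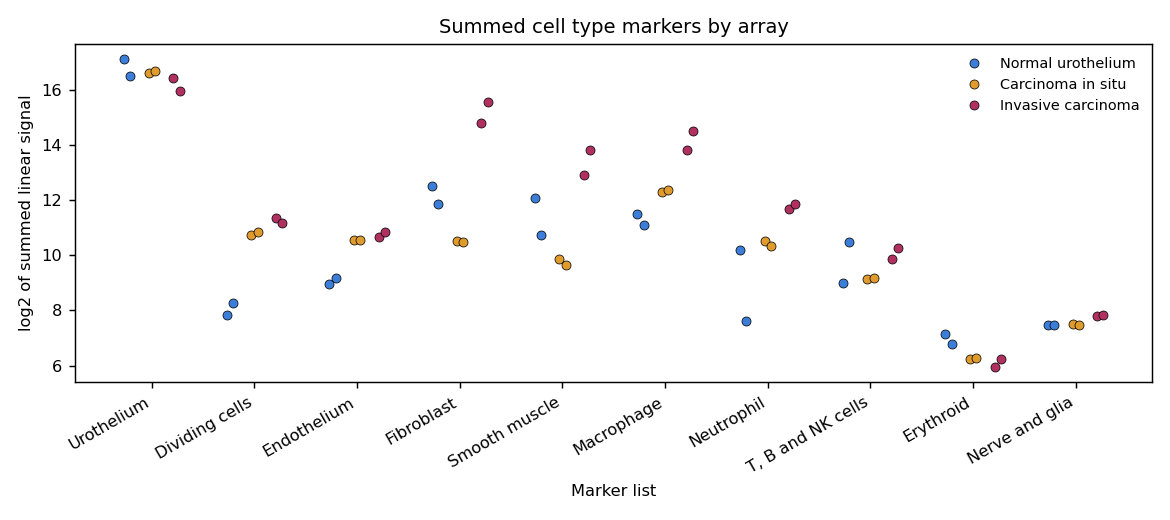
Log2 of the summed linear signal (vertical axis) of 10 marker lists (horizontal axis) on each array. Dividing cell markers are higher in all lesion arrays, whereas fibroblast and smooth muscle markers are lowest in carcinoma in situ and highest in invasive carcinoma.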

How the data were processed

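The values analysed were those of 6 Affymetrix 3' expression arrays of laser-captured bladder tissue. The authors deposited log2 signal for 45101 probe sets, made with Partek and RMA per the submitters' processing notes, with no version given. RMA corrects background and brings the arrays to a common distribution, so differences in total RNA are not seen and small folds of dim genes are compressed. No source used here gives a genome build.

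Names for 34945 probe sets, each with a single symbol and no control, were taken from the platform annotation and updated through a RefSeq gene table. The 18193 genes were fitted jointly over the 3 groups with limma 3.58.1 (R 4.3.3), using 3 residual and 2.69 prior degrees of freedom. Dim genes were kept, and two-sided p-values were adjusted by the Benjamini-Hochberg method. Intervals are 95% intervals of the moderated model. Errors of differences are standard errors. The script was tested on simulated data. Groups came from the sample titles. The number of arrays limits the precision.

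The 10 genes and all lists were chosen with earlier results of these data known. All 10 were named. From each other list up to 3 genes past the threshold with the largest change were named by rule. Others (Skp2, Tyms, E2f2, the pocket protein genes, Fgf3, Fgf4, Fgf15, and the values of marker genes) were added after their values were seen. Oraov1 and 4 marker genes were not analysed here. The alternatives were other probe set choices, filters, variance models, scalings, fewer arrays and a replicate block.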

Additional observations from a re-analysis of the deposited data

How the results depend on the processing

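Counts of the 10 genes called under 16 alternatives were within 1.5 times the reported count for 16 in invasive carcinoma against normal urothelium (5 to 9 called against 7), for 10 where carcinoma in situ was compared with normal urothelium, and for 7 between the lesions, and no alternative called a fall. In carcinoma in situ against normal urothelium 4 were called with only the 4 arrays compared in the fit, 0 with both in situ arrays averaged to 1 sample, and 0 to 8 when single arrays were left out. At an unadjusted p under 0.05 limma had 7 of 10 with the averaged arrays, beside 2320 of all 18193 genes. The fit of only the 4 arrays compared called 947 of all genes in carcinoma in situ against normal urothelium. Between the lesions 2 were called with a mean-variance trend and robust moderation, beside 1028 of all genes. With only the 4 arrays compared 2 were called, beside 2493 of all genes. The call of Cdkn2c was lost with both in situ arrays averaged, or with either left out. When 1 array of a group was left out, the remaining one was assumed to vary like the other groups. It added nothing to the estimate of the spread, so some of the 16 alternatives are the same fit for a given comparison. Invasive carcinoma against normal urothelium gave identical results with only the 4 arrays compared, without either in situ array and with the in situ arrays averaged. All counts over alternatives include such repeats. Numbers of all genes called ranged from 0 to 6352 (reported 1597), 1637 to 8165 (3652) and 50 to 5897 (999) over the alternatives. Centring the arrays on their median over genes shifted the median of all genes to -0.107, -0.271 and -0.185 in the 3 comparisons and changed no call of the 10 genes.

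Deviations of same-numbered arrays from their group means had correlations of -0.39 (normal and in situ), 0.37 (normal and invasive) and -0.34 (in situ and invasive). Swapping the numbers of the 2 arrays in a group would reverse the sign of its correlations. These values therefore cannot decide whether the numbers mark pairs, and the numbers were not taken as pairs. With a replicate block 6, 7 and 2 of the 10 genes were called in the 3 comparisons, beside 1146, 3315 and 887 of all genes. Of 477 values of single genes under an alternative 421 kept their side of the threshold, 40 lost it, 16 passed it newly and 0 called values changed sign. The causes were not tested.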
